A study of Mus musculus with 16 samples.

Results

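The endoplasmic reticulum (ER) is where a cell makes and folds the proteins that it secretes or builds into its membranes. The 40 genes described here encode its protein-import channel, its chaperones and folding enzymes, its disposal route for misfolded proteins and the sensors that watch over folding. They were chosen by gene symbol from the 46078 genes of the count table, and each symbol matched a single Ensembl gene. All 40 were among the 15096 genes that passed the filter on low counts. Earlier results of the exercise comparison at day 5, in which Selenos and Sec61b were among the lower genes and Xbp1 was lower, had drawn attention to the set. The values of that comparison are therefore given below as a description, with no test.

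The libraries were made from lysolecithin lesions of mouse spinal cord. Injected lysolecithin, a lipid that acts as a detergent, destroys the myelin around axons, and the lesion then passes through a phase of clearance before new oligodendrocytes form myelin again. The mice were C57BL/6 and 8 to 12 weeks old, every group received the toxin, and the lesion was cut out of frozen cord by laser microdissection, so that a library holds every cell type in the cut area. There were 4 groups of 4 libraries: exercise lesions from mice with a free running wheel at day 10, control lesions from mice with a locked wheel at day 10, and the same pair of conditions at day 5. The labels do not say that each library came from a separate animal, so a p-value reflects the spread among libraries, which may be technical. In such bulk samples, fewer cells of a type and less RNA per cell cannot be told apart.

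A new secretory protein enters the ER through the Sec61 channel, helped by Sec62, Sec63 and the translocon-associated protein (TRAP) complex, and signal peptidase removes its leader peptide. The chaperone BiP (Hspa5), its co-chaperones and Grp94 (Hsp90b1) hold the chain while the lectins calnexin and calreticulin and the protein disulfide isomerases shape it. Chains that fail to fold are sent back to the cytosol by ER-associated degradation (ERAD). When unfolded proteins build up, the sensors IRE1 (Ern1), PERK (Eif2ak3) and ATF6 start the unfolded protein response, in which Xbp1, Atf4 and cleaved ATF6 raise chaperone and ERAD genes. In the nervous system this response is well studied in myelinating oligodendrocytes, which make large amounts of membrane protein and lipid.

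Much of this response acts through short promoter elements, and their letters can be searched for in sequence. The ER stress response element (ERSE) joins a CCAAT box, bound by NF-Y, to a CCACG site, bound by ATF6 or XBP1, across a spacer of 9 unspecified bases. It was searched on both strands from 250 bases before to 50 bases after the start site in RefSeq promoters of build GRCm38.p6, in which 33 of the 40 genes had an entry. The element was present in 8 of the 33 (24.2%), against 37 of 27025 genes (0.137%) with a promoter entry. ERSE-II, an ATTGG box and a CCACG site with 1 unspecified base between them, was present in Dnajb11 and Herpud1, which is 6.06% of the matched genes against 0.0444% of all genes. The core of the unfolded protein response element, TGACGTGG, was in none of the 33 and in 0.714% of all genes. The C/EBP-ATF element TTGCATCA was in Herpud1 alone of the 33 and in 1.03% of all genes. Many of the 40 are textbook targets of the response, so these shares describe the choice of genes, and a match is not shown to be a bound site. The windows upstream of the start site that hold the element are shown because they mark which of the genes below carry it. Each reads 5′ to 3′ along the gene's strand, with the element in capitals, which appears as its reverse complement (beginning CGTGG) where it lies on the other strand.
Hspa5, chr2:34772005-34772063, plus strand: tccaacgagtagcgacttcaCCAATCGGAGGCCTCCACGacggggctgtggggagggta
Hsp90b1, far element, chr10:86705618-86705676, minus strand: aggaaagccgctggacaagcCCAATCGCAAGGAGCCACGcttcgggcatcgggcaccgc
Hsp90b1, near element, chr10:86705513-86705571, minus strand: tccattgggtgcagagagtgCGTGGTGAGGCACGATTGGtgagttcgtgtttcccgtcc
Dnajc3, chr14:118937807-118937865, plus strand: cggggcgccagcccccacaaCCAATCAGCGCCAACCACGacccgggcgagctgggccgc
Creld2, chr15:88819500-88819558, plus strand: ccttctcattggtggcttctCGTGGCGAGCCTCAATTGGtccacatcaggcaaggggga
Calr, chr8:84847055-84847113, minus strand: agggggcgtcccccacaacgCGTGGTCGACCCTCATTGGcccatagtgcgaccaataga
Canx, chr11:50325780-50325838, minus strand: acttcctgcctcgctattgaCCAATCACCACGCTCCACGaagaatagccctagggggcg
Pdia6, chr12:17266471-17266529, plus strand: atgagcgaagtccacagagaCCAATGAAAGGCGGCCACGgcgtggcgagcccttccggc
Syvn1, chr19:6046512-6046570, plus strand: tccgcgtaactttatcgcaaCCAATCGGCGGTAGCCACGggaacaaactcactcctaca
Herpud1 with ERSE-II, chr8:94386357-94386407, plus strand: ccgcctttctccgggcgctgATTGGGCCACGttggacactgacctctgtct

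Totals ran from 9.77 to 11.09 M counts (M, mega) in exercise and from 10.71 to 12.7 M in control at day 10, and from 8.13 to 10.93 M in exercise and from 11.2 to 13.93 M in control at day 5. The 40 genes together took 0.619% to 1.02% of a library's counts, and the lowest single count among them was 43, for Sec61g. The libraries of 2 groups stood apart in ways that touch the results. At day 5 the exercise libraries all had lower totals than the control libraries, and the mitochondrial ribosomal RNA mt-Rnr2 took 10.91% to 12.94% of counts in exercise and 8.05% to 10.28% in control. At day 10, exercise replicate 17 was the highest of its group for 31 of the 40 genes. Its mean level over the 40, as log2(CPM + 1), was 6.98, against 6.48, 6.50 and 6.63 in exercise replicates 13, 18 and 19. The summed markers of that library lay outside the range of the other exercise libraries of day 10 for 6 of 8 marker lists. It was low in oligodendrocyte markers (11600 CPM against 15110 to 26780), neuron markers (122 against 147 to 507) and astrocyte markers (3829 against 3878 to 5501), and high in macrophage and microglia markers (2645 against 1691 to 2163), endothelial markers (207 against 106 to 142) and proliferation genes (180.1 against 72.4 to 139). In exercise at day 10 Flt1 made up most of the endothelial sum (group means of 121 and 143 CPM). The fibroblast and plasma and B cell markers of replicate 17 were within the range. The part of these differences in the results was not tested, and values without this library are given where leaving it out moved a result.

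Levels are in CPM, the count as a share of the library's total on the usual scale, adjusted by the TMM method so that libraries of different composition can be compared. Per kilobase of exon and averaged over the 16 libraries, the protein disulfide isomerase P4hb was the highest of the 40 at 371 CPM per kilobase. Manf, a secreted ER-resident survival factor, had 134.8, the retrotranslocation protein Derl1 had 128, calnexin (Canx) had 121 and Hsp90b1 had 119 CPM per kilobase. The lowest were the sensor Ern1 at 1.56, the ERAD ubiquitin ligase Syvn1 at 1.81 and the small channel subunit Sec61g at 2.83 CPM per kilobase. The 3 sensors ranked 33 (Eif2ak3, 6.29 CPM per kilobase), 34 (Atf6, 6.01) and 40 (Ern1) of the 40. Of the transcription factors, Atf4 had 58.2, Xbp1 51.0 and Ddit3 5.83 CPM per kilobase.

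**Figure D1:**
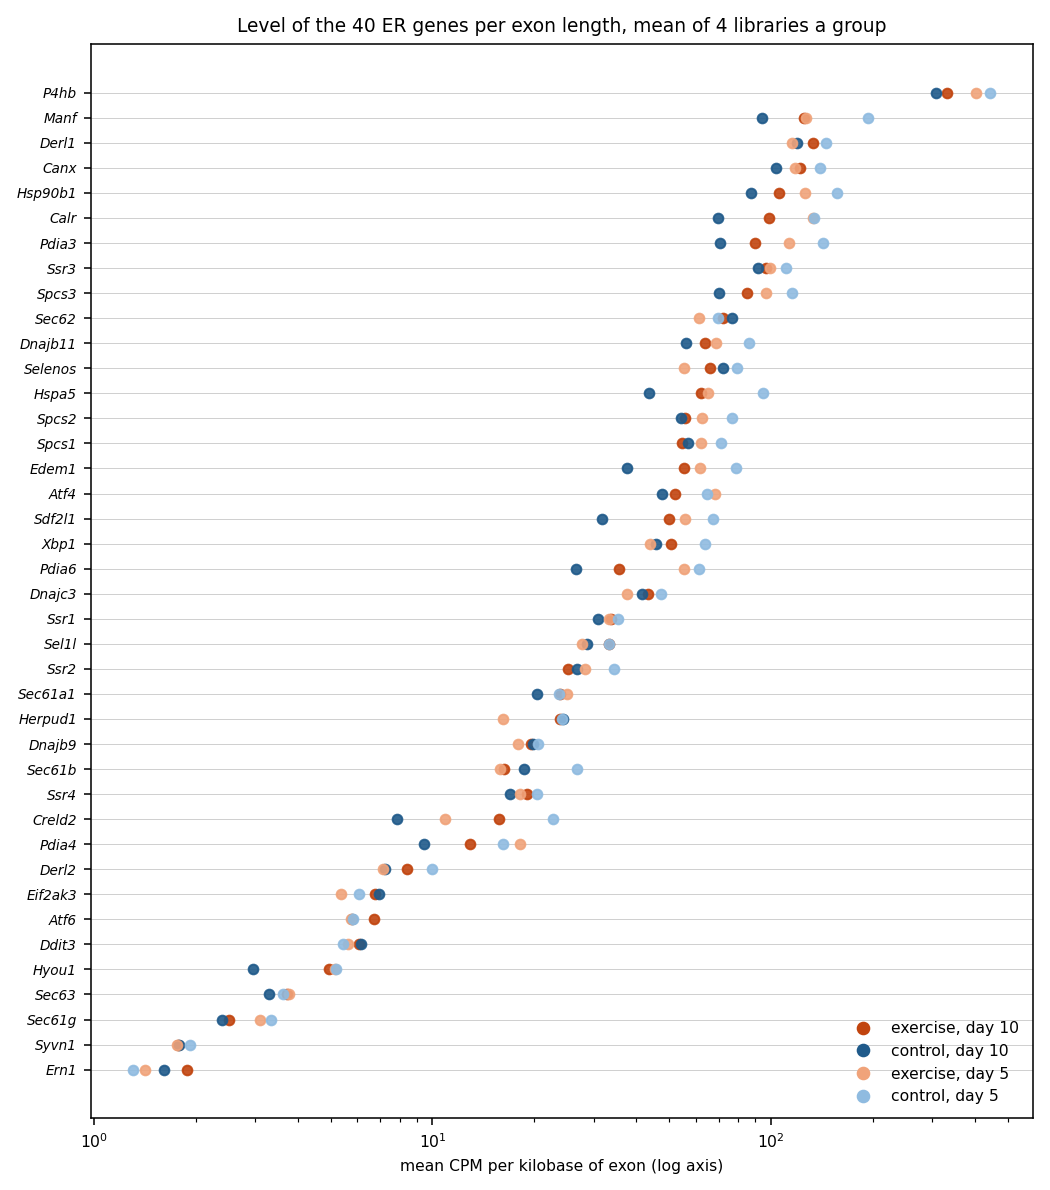
Level of each of the 40 genes as mean CPM per kilobase of exon on a log axis, with 1 dot per group of 4 libraries and genes ordered by their mean over all 16. P4hb lies alone at the top (371 CPM per kilobase) and Ern1 at the bottom (1.56), and the day 10 control dot is the left-most for Pdia6, Hspa5 and Manf.

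Without running, the folding genes were lower at day 10 than at day 5. The protein disulfide isomerases Pdia6, Pdia3, Pdia4 and P4hb, the lectins Calr and Canx, the signal peptidase subunits and most chaperones all fell in control lesions, Pdia6 by 2.31-fold and Hspa5 by 2.18-fold. The test was edgeR's quasi-likelihood test with Benjamini-Hochberg adjustment over all 15096 genes and a threshold of 0.05, which called 12.3% of all genes, 6.64% as lower. The day 5 libraries are also those of the comparison that drew attention to the set, so Selenos, Sec61b and Xbp1 are given without a test here. The other 37 genes share those day 5 control libraries, so their counts below are not free of that choice. In 11 of the 37, every exercise library of day 5 lay below every control library of day 5, against 3.97% of all genes. Of the other 37 genes, 18 were lower (48.6%) and 0 higher, while 22 were lower at an unadjusted p under the same threshold, against 13.7% of all genes. The median log2 fold change was -0.43 over the 37 and 0.01 over all genes tested. In 23 of the 37, every library of day 10 lay below every library of day 5, against 10.7% of all genes. Beside these values, the 5 proliferation markers fell, summing to 68.3 to 109.7 CPM at day 10 and 278 to 313 CPM at day 5. Of the 6 oligodendrocyte markers 5 rose, summing to 23300 to 26180 CPM at day 10 and 10390 to 14270 CPM at day 5. Of the astrocyte markers Aqp4 and Slc1a3 rose (2 of 5), with sums of 5035 to 6126 CPM at day 10 and 2599 to 4631 CPM at day 5. Of the macrophage and microglia markers Csf1r and Cx3cr1 rose and Cd68 fell (3 of 6), with sums of 1492 to 1753 CPM at day 10 and 1607 to 2189 CPM at day 5. The neuron markers Stmn2 and Tubb3 fell (2 of 6), with sums of 159 to 407 CPM at day 10 and 326 to 469.8 CPM at day 5. In the fibroblast list only Pdgfra rose (1 of 6), with sums of 2940 to 3686 CPM at day 10 and 741 to 2824 CPM at day 5. Of the 2 plasma and B cell markers tested, the antibody gene Ighm rose. Sums over all 6 were 189 to 261 CPM at day 10 and 130.1 to 282 CPM at day 5. These sums were mostly Sdc1, with group means of 174.7 to 200.1 CPM over the 4 groups. Jchain, Mzb1, Cd79a and Tnfrsf17 had means of at most 0.331 CPM in any group and were not tested. None of the 5 endothelial markers passed the test, with sums of 104 to 123 CPM at day 10 and 97.5 to 119 CPM at day 5. No marker was at 0 in all 16 libraries, and the part of these lists in the lower levels of the folding genes was not tested.

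**Figure D2:**
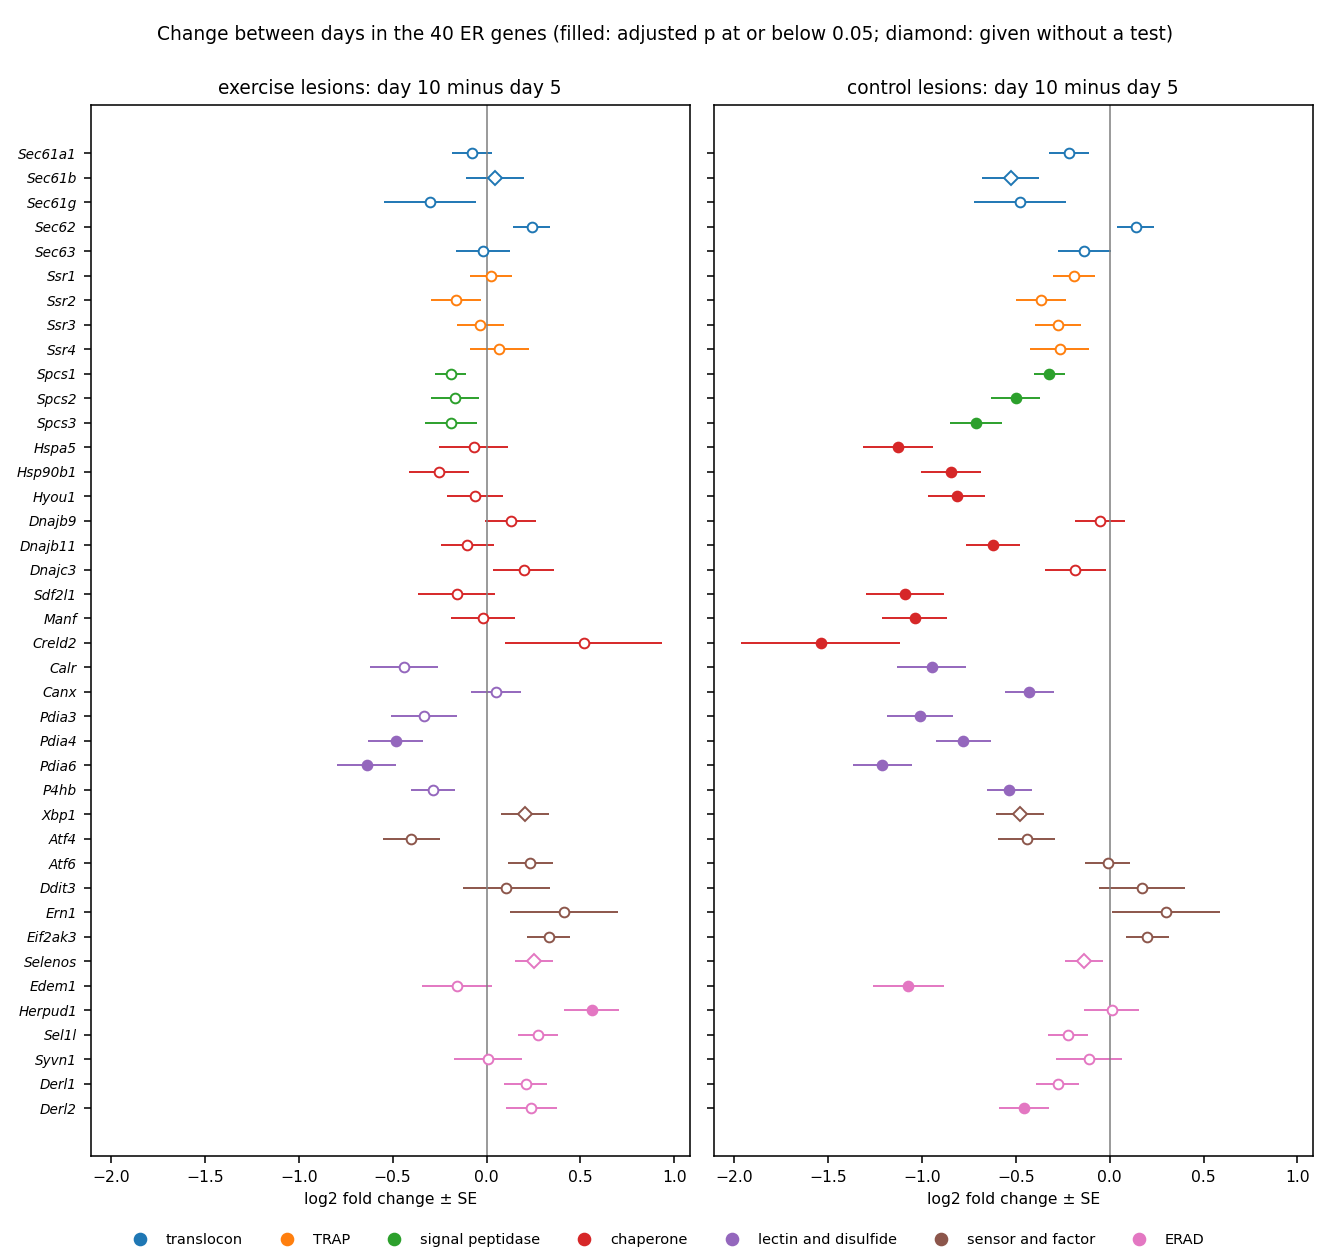
Log2 fold change of day 10 over day 5 with its standard error for each of the 40 genes, in exercise lesions (left) and control lesions (right), coloured by role, filled where the adjusted p was at or below 0.05 and drawn as diamonds for the 3 genes given without a test. In control lesions the filled points are all left of 0, from -0.32 to -1.54, while in exercise lesions 2 filled points lie left of 0 and 1 lies right of it.

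All 6 lectins and disulfide isomerases fell in control lesions. The values of each library follow in the order of the replicate numbers. Pdia6, a disulfide isomerase that works beside BiP, had 95.1, 91.8, 112 and 97.8 CPM in control lesions at day 10, against 222, 224, 230.4 and 242 CPM at day 5. Each day 5 library was at or above 222 CPM and each day 10 library at or below 112, and the log2 fold change was -1.21 (SE 0.16, adjusted p = 0.000124). Pdia3, which works with the lectins on glycoproteins, had 218, 223, 239 and 209 CPM at day 10, against 433, 407, 492 and 459 CPM at day 5 (log2 fold change -1.01, SE 0.18, adjusted p = 0.00126). Pdia4, a further isomerase, had 23.8, 25.3, 26.7 and 17.9 CPM at day 10, against 43.9, 44.9, 33.5 and 38.5 CPM at day 5 (log2 fold change -0.78, SE 0.15, adjusted p = 0.00206). Neither gene's days overlapped. Calreticulin (Calr), the soluble lectin and a calcium store of the ER, had 188, 207, 211 and 197 CPM at day 10, against 344, 359, 399 and 445 CPM at day 5. The days were again apart, with a log2 fold change of -0.95 (SE 0.18, adjusted p = 0.00250). P4hb and the membrane lectin Canx fell less, by 1.45-fold and 1.34-fold.

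Of the 9 chaperones and co-chaperones 7 fell. BiP (Hspa5), the central chaperone and the usual readout of ER stress, had 194, 179, 208 and 155 CPM in control lesions at day 10, against 379, 349, 458 and 420.3 CPM at day 5. The day 10 values were at most 208 CPM and the day 5 values at least 349, a log2 fold change of -1.13 (SE 0.18, adjusted p = 0.000791). Manf had 317, 294, 361 and 355 CPM at day 10, against 526, 607, 911 and 682 CPM at day 5 (log2 fold change -1.04, SE 0.17, adjusted p = 0.0008615), with day 5 replicate 5 the highest of all 16 libraries. Hyou1, the large chaperone that recharges BiP with nucleotide, had 20.2, 23.5, 20.6 and 20.96 CPM at day 10, against 35.5, 41.2, 33.4 and 39.8 CPM at day 5 (log2 fold change -0.81, SE 0.15, adjusted p = 0.00191). Both genes were lower in every day 10 library. Grp94 (Hsp90b1), the ER form of Hsp90, had 341, 369, 369.6 and 330.2 CPM at day 10, against 653, 592, 708 and 580.2 CPM at day 5 (log2 fold change -0.85, SE 0.16, adjusted p = 0.00236). Sdf2l1, part of the BiP folding cycle, had 27.9, 31.5, 45.1 and 36.4 CPM at day 10, against 65.8, 72.1, 83.4 and 78.3 CPM at day 5 (log2 fold change -1.09, SE 0.21, adjusted p = 0.00236). The widest gap in this role was in Creld2, a secreted stress-response factor, at 10.7 ± 4.92 CPM at day 10 and 31.03 ± 9.96 CPM at day 5 (SD, n = 4 each), a 2.90-fold fall. Dnajb11, a BiP co-chaperone, fell 1.54-fold. Its relatives Dnajb9 (log2 fold change -0.05, SE 0.13) and Dnajc3 (-0.18, SE 0.16) did not pass the test.

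The other roles moved less evenly. All 3 signal peptidase subunits fell in control lesions, Spcs3 by 1.64-fold, Spcs2 by 1.42-fold and Spcs1 by 1.25-fold. Edem1, which marks misfolded glycoproteins for disposal, had 194, 209.5, 238 and 237 CPM at day 10, against 437, 421, 488 and 502 CPM at day 5 (log2 fold change -1.07, SE 0.19, adjusted p = 0.00137). Its days were apart by a wide margin. Of the other ERAD genes only Derl2 passed the test, at 1.37-fold lower, and Sel1l, Syvn1, Derl1 and Herpud1 had log2 fold changes between -0.28 and 0.01. Herpud1, a membrane component of the ERAD complex, had 50.3, 61.8, 59.9 and 55.3 CPM at day 10 and 50.2, 50.6, 69.95 and 54.9 CPM at day 5, with overlapping values. None of the 4 TRAP subunits passed the test, with log2 fold changes from -0.37 to -0.19, and none of Sec61a1, Sec61g, Sec62 and Sec63 did, from -0.48 to 0.14. None of the 5 sensors and factors other than Xbp1 passed it. Atf4 had 80.6, 68.5, 85.9 and 93.99 CPM at day 10 and 91.1, 96.8, 108 and 150.3 CPM at day 5, and its log2 fold change of -0.44 had an adjusted p of 0.0661 with edgeR. It passed with DESeq2 (adjusted p = 0.0471) and without control replicate 1 of day 5 (adjusted p = 0.0484). Ddit3, the stress-induced factor downstream of Atf4 that is linked to cell death, had 8.89, 11.1, 14.1 and 8.11 CPM at day 10 and 7.08, 10.2, 10.3 and 9.74 CPM at day 5 (log2 fold change 0.17, SE 0.23, adjusted p = 0.680). The 18 calls were thus 6 lectins and isomerases, 7 chaperones, 3 signal peptidase subunits and 2 ERAD genes, and whether the roles differ from each other was not tested. Of these 18 calls 13 held under every alternative tried, and Spcs1 and Creld2 did not pass with no filter on low counts. Canx did not pass with any 1 of the 8 control libraries left out. Creld2 did not pass without control replicate 2 of day 5 or replicate 2, 3 or 5 of day 10, Derl2 not without replicate 1 or 5 of day 5 or 2 or 3 of day 10, and Spcs2 not without replicate 5 of day 5.

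As a description with no test, Xbp1 had 152, 132, 158 and 153 CPM in control lesions at day 10 and 199.8, 203, 228 and 198 CPM at day 5, with no overlap (log2 fold change -0.48, SE 0.13). Xbp1 is the factor whose messenger IRE1 splices, and the gene counts do not separate the spliced form. Sec61b, the beta subunit of the channel, had 24.98, 19.8, 25.7 and 24.1 CPM at day 10 and 25.4, 37.4, 38.6 and 34.96 CPM at day 5, where day 5 replicate 1 lay within the day 10 range (log2 fold change -0.53, SE 0.15). Selenos, a selenoprotein of the ERAD complex, had 88.2, 81.7, 83.8 and 92.7 CPM at day 10 and 93.7, 86.7, 108 and 92.2 CPM at day 5 (log2 fold change -0.14, SE 0.10), with overlapping days.

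Genes with the ER stress response element in their promoter were often among those lower in control lesions. Of the 8 genes whose windows are printed above for that element, 6 were called lower (75%), with a median log2 fold change of -0.90. Dnajc3 and Syvn1 were not called. The share called lower was 48.6% over the 37 tested genes and 6.64% over all genes. Among the 6, Canx and Creld2 did not hold under every alternative tried. Of the 22 tested genes with a promoter entry and no such element 9 were lower (40.9%), with a median of -0.30. Of the 7 with no promoter entry 3 were lower (42.9%), with a median of -0.37. The difference between these shares was not tested. A missing match says only that these letters are not in this window.

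**Figure D3:**
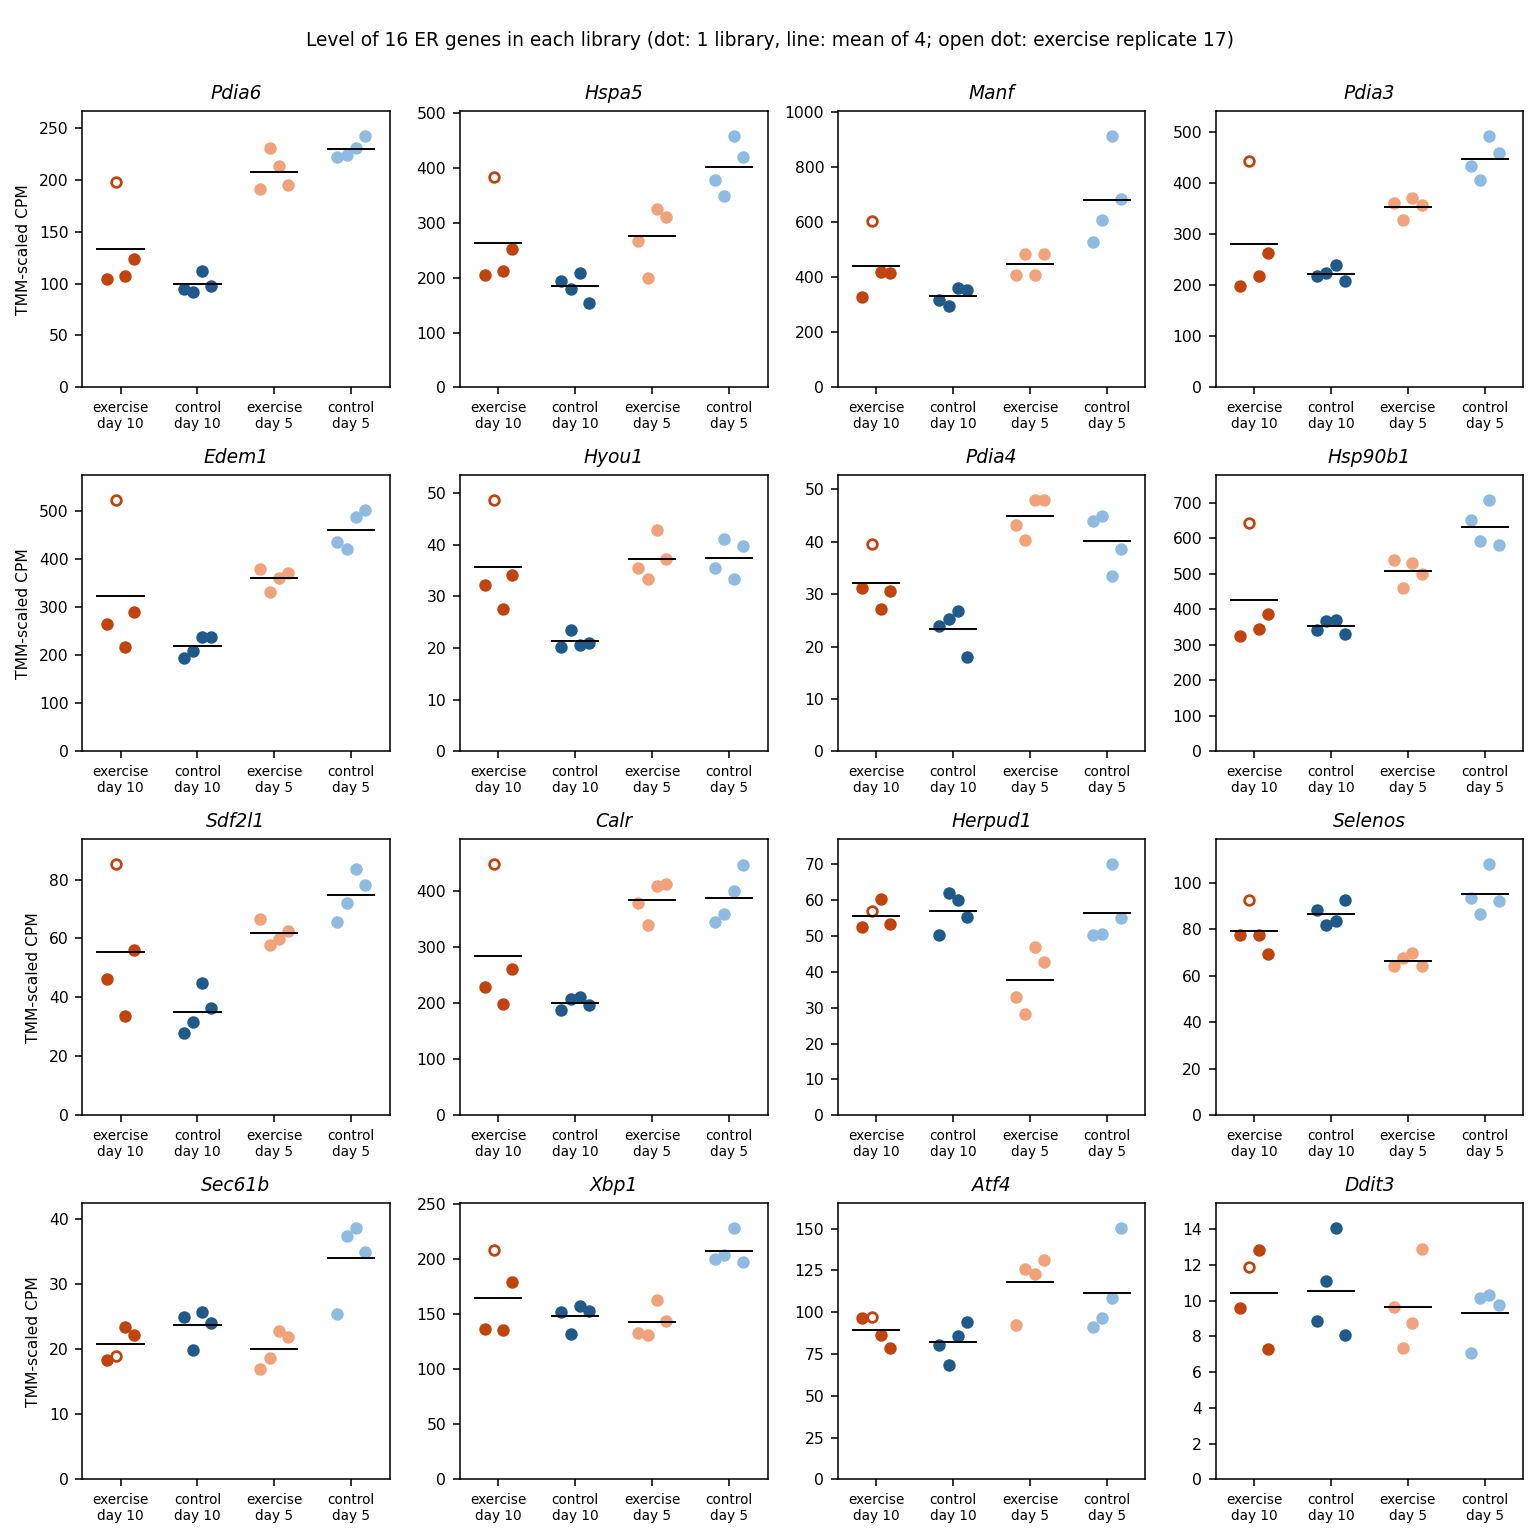
TMM-scaled CPM of 16 of the 40 genes in every library, with 1 dot per library, a line at the mean of 4 and an open dot for exercise replicate 17. For Pdia6 and Hspa5 every control dot of day 10 (at most 112 and 208 CPM) lies below every control dot of day 5 (at least 222 and 349 CPM), while the open dot (198 and 383 CPM) lies far above the other exercise dots of day 10.

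With running, 3 of the 37 tested genes differed between the days. Pdia6 and Pdia4 were lower and Herpud1 higher at day 10 than at day 5 in exercise lesions. That is 8.11%, against 10.1% of all genes, so the share called is close to the background. The same edgeR fit and threshold were used, and the median log2 fold change was -0.03 over the 37 and 0.01 over all genes. At an unadjusted p under the threshold 4 were higher and 6 lower, where 13.1% and 12.7% of all genes were. The day 5 exercise libraries, the baseline here, are also those of the comparison that drew attention to the set. The values of the 37 in exercise lesions, here and below, are therefore not free of that choice. At day 5 levels were lower with exercise in 31 of the 37, Herpud1 among them, against 48.4% of all genes. The 5 proliferation markers fell with running as well, summing to 72.4 to 180.1 CPM at day 10 and 251 to 343 CPM at day 5. Of the 6 oligodendrocyte markers 2 rose, summing to 11600 to 26780 CPM at day 10 and 11560 to 16380 CPM at day 5. Aif1, Csf1r, Ptprc and Cx3cr1 rose and Cd68 fell among the 6 macrophage and microglia markers (1691 to 2645 CPM at day 10 and 1875 to 2053 CPM at day 5), and Aqp4 and Slc1a3 rose among the 5 astrocyte markers (3829 to 5501 CPM at day 10 and 3128 to 5068 CPM at day 5). Stmn2, Tubb3 and Chat fell among the 6 neuron markers (122 to 507 CPM at day 10 and 459.6 to 873 CPM at day 5), as did Pecam1, Tek and Emcn among the 5 endothelial markers (106 to 207 CPM at day 10 and 106 to 148 CPM at day 5). Most of the endothelial sum was Flt1, whose means were 121 CPM at day 10 and 76.4 CPM at day 5. Its log2 fold change of 0.66 (SE 0.23) did not pass the test, and was 0.39 without replicate 17. Pdgfra again rose among the fibroblast markers (1533 to 4703 CPM at day 10 and 1629 to 2858 CPM at day 5). Ighm rose among the plasma and B cell markers, whose sums were again mostly Sdc1 (149.9 to 304 CPM at day 10 and 150 to 241 CPM at day 5). The part of these lists in the result was not tested. Whether the day's effect differed between exercise and control was not tested, because that difference contains the day 5 comparison.

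Pdia6 had 105, 198, 107 and 123 CPM in exercise lesions at day 10, against 191, 230.4, 214 and 195 CPM at day 5. Replicate 17, with 198 CPM, was the single library within the day 5 range (log2 fold change -0.64, SE 0.16, adjusted p = 0.0136). Pdia4 had 31.2, 39.5, 27.1 and 30.5 CPM at day 10, against 43.2, 40.4, 47.9 and 47.9 CPM at day 5, with no overlap (log2 fold change -0.48, SE 0.15, adjusted p = 0.0419). Herpud1 had 52.3, 56.9, 60.1 and 53.2 CPM at day 10, against 32.95, 28.1, 46.9 and 42.8 CPM at day 5, and every day 10 library was higher (log2 fold change 0.56, SE 0.15, adjusted p = 0.0219). It is the gene of the set whose promoter holds both ERSE-II and the C/EBP-ATF element. Pdia6 passed with any 1 exercise library left out. Herpud1 did not pass without replicate 1 or 2 of day 5 or replicate 18 of day 10, and Pdia4 not without replicate 1, 7 or 12 of day 5 or 13, 18 or 19 of day 10, nor with no filter on low counts. With the 8 exercise libraries fitted alone 0 of the 37 passed, and without replicate 18 only Pdia6 did.

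Without replicate 17, 9 of the 37 were called in exercise lesions, against 11.9% of all genes. Herpud1 remained higher, and 8 were lower, against 5.86% of all genes: Pdia6 (log2 fold change -0.89), Calr (-0.74), Pdia3 (-0.64), Pdia4 (-0.60), Hsp90b1 (-0.52), Edem1 (-0.49), P4hb and Spcs3 (both -0.39). All 8 were also called lower in control lesions, of whose 18 calls they are 44.4%. The median over the 37 was then -0.14. In Calr, exercise lesions had 228, 447, 198 and 261 CPM at day 10 and 377, 339, 408 and 412 CPM at day 5, the second day 10 value being replicate 17. Pdia3 had 198, 444, 219 and 263 CPM at day 10 and 360.2, 327, 371 and 356 CPM at day 5. Hsp90b1 had 326, 644, 345 and 387 CPM at day 10 and 538, 461, 531 and 499.6 CPM at day 5. In all 3 genes replicate 17 was above every day 5 library and the other 3 libraries of day 10 below every one. Edem1 was the same in kind, with 265, 523, 217 and 289.6 CPM at day 10 and 379.8, 331, 361 and 372 CPM at day 5.

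The remaining genes with values in each library overlapped between the days with running. Hspa5 had 205, 383, 212 and 253 CPM in exercise lesions at day 10 and 268, 199, 325 and 311 CPM at day 5 (log2 fold change -0.07, SE 0.18). Manf had 328, 603, 418 and 413 CPM at day 10 and 409, 484, 407 and 484 CPM at day 5. For both, replicate 17 was the highest of the 8 libraries, and without it the log2 fold changes were -0.30 (SE 0.15, adjusted p = 0.206) and -0.21 (SE 0.15, adjusted p = 0.422). Hyou1 had 32.2, 48.6, 27.6 and 34.2 CPM at day 10 and 35.4, 33.3, 42.8 and 37.2 CPM at day 5. Sdf2l1 had 46.4, 85.2, 33.7 and 56.2 CPM at day 10 and 66.5, 57.9, 59.98 and 62.6 CPM at day 5. In Sdf2l1 the 3 libraries other than replicate 17 were below every day 5 library, which was not so in Hyou1. Without that library Sdf2l1 had a log2 fold change of -0.44 and Hyou1 of -0.25, where they were -0.16 and -0.06 with it, and neither passed the test. Atf4 had 96.3, 97.3, 86.2 and 78.4 CPM at day 10 and 92.2, 126, 123 and 131 CPM at day 5 (log2 fold change -0.40, SE 0.15, adjusted p = 0.104), and passed without exercise replicate 1 of day 5 (adjusted p = 0.0459). Ddit3 had 9.59, 11.9, 12.9 and 7.30 CPM at day 10 and 9.66, 7.35, 8.78 and 12.9 CPM at day 5, and its days were mixed. As a description, Xbp1 had 136, 208, 135 and 179 CPM at day 10 and 133, 131, 163 and 144 CPM at day 5, Selenos had 77.6, 92.7, 77.6 and 69.4 CPM at day 10 and 64.1, 67.7, 70.01 and 64.4 CPM at day 5, and Sec61b had 18.3, 18.9, 23.4 and 22.2 CPM at day 10 and 16.97, 18.6, 22.8 and 21.9 CPM at day 5. The log2 fold changes of these 3 were 0.21, 0.25 and 0.05, in that order, and without replicate 17 they were 0.07, 0.17 and 0.09. Eif2ak3 (PERK) and Sec62 were higher in every day 10 library but did not pass the test (log2 fold changes 0.33 and 0.24). The share of all genes whose days were apart in this way with running is not given here.

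Exercise was then set against control at day 10, on libraries that the comparison behind the choice of genes did not use. None of the 40 genes passed the threshold with edgeR's quasi-likelihood test, against 0.192% of all genes. DESeq2 called 1 gene and limma-voom 0. At an unadjusted p under the threshold 10 were higher with exercise and 0 lower, where 7.25% and 5.56% of all genes were. The log2 fold change was above 0 in 30 of 40, against 52.1% of all genes, with a median of 0.17, against 0.01 over all genes. The median and the unadjusted count rested largely on replicate 17, the count above 0 less so. Without it 27 of the 40 were above 0, against 50.6% of all genes, and the median was 0.03. At an unadjusted p 3 genes were then higher and 1 lower, where 5.78% and 4.76% of all genes were, and no gene of the whole table passed the threshold (0%). The authors' deposited table for day 10, which leaves that library out and compares 7, lists 0 of the 40 at an adjusted p at or below 0.05. In the authors' deposited table, 26 of the 40 had a log2 fold change above 0, with a median of 0.02.

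Some markers of cell types differed beside these values. Of the 6 macrophage and microglia markers Itgam was higher with exercise (log2 fold change 1.02, SE 0.20, adjusted p = 0.0424 with edgeR, and 0.76 with an adjusted p of 0.0738 without replicate 17), and the list summed to 1691 to 2645 CPM in exercise and 1492 to 1753 CPM in control lesions. No other marker passed the test. In every exercise library Itgam, Csf1r, Ptprc and the proliferation marker Mki67 were above, and the astrocyte marker Gja1, the endothelial markers Cldn5 and Emcn and the fibroblast marker Lum below, every control library. Of all genes 3.3% lay above in this way, and the share below is not given here. In every other marker of the lists the groups overlapped. Among these, the endothelial marker Flt1, most of the sum of its list, went the other way from Cldn5 and Emcn. It had means of 121 CPM in exercise and 80.4 CPM in control lesions (log2 fold change 0.59, SE 0.23, adjusted p = 0.296 with edgeR). Without replicate 17 its log2 fold change was 0.32. The sums were 72.4 to 180.1 CPM in exercise and 68.3 to 109.7 CPM in control lesions for proliferation, and 11600 to 26780 CPM in exercise and 23300 to 26180 CPM in control lesions for oligodendrocyte markers. They were 3829 to 5501 CPM in exercise and 5035 to 6126 CPM in control lesions for astrocyte markers, and 106 to 207 CPM in exercise and 104 to 123 CPM in control lesions for endothelial markers. The neuron markers summed to 122 to 507 CPM in exercise and 159 to 407 CPM in control lesions. The fibroblast markers summed to 1533 to 4703 CPM in exercise and 2940 to 3686 CPM in control lesions. The plasma and B cell markers, mostly Sdc1, summed to 149.9 to 304 CPM in exercise and 189 to 261 CPM in control lesions. The part of these lists in the values of the 40 genes was not tested.

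The chaperones and the lectin and disulfide group had the largest values with exercise at day 10, with medians of 0.41 and 0.38, and the other roles had medians from 0.04 to 0.15. Without replicate 17 these 2 medians were 0.22 and 0.11, and the other roles had medians from -0.09 to 0.09. Hyou1 came nearest to the threshold. It had 35.6 ± 9.07 CPM in exercise lesions and 21.3 ± 1.47 CPM in control lesions (SD, n = 4 each), and every exercise library was above every control library (log2 fold change 0.74, SE 0.15, adjusted p = 0.0525 with edgeR). It was the gene that DESeq2 called (log2 fold change 0.74, adjusted p = 0.00158), it passed with no filter on low counts (adjusted p = 0.0449) and it passed without exercise replicate 18 (adjusted p = 0.0176), where Sdf2l1 passed too (adjusted p = 0.0384). The shares of all genes called under these settings are not given here. Without replicate 17 the log2 fold change of Hyou1 was 0.56 (adjusted p = 0.116 with edgeR), and the 3 other exercise libraries still lay above all control libraries. Pdia4 was the only other gene with groups apart, at 32.1 ± 5.26 CPM in exercise and 23.4 ± 3.86 CPM in control lesions (log2 fold change 0.45, SE 0.15, adjusted p = 0.214). For 2 of 40 genes exercise was thus higher in all libraries, against 3.3% of all genes. Creld2 had the largest difference, 1.01, with an SE of 0.42, and 0.54 without replicate 17.

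The readouts of the stress response did not pass the test at day 10. Hspa5 had 263 ± 82.8 CPM in exercise lesions and 184 ± 22.9 CPM in control lesions (log2 fold change 0.52, SE 0.18, adjusted p = 0.250). Without replicate 17 the difference was 0.28. Xbp1 had 165 ± 35.5 CPM in exercise lesions and 149 ± 11.4 CPM in control lesions (log2 fold change 0.15, SE 0.13, adjusted p = 0.665). Without replicate 17 its difference was 0.01. Atf4 had 89.6 ± 8.96 CPM in exercise and 82.2 ± 10.7 CPM in control lesions, and Ddit3 had 10.4 ± 2.49 CPM in exercise and 10.5 ± 2.67 CPM in control lesions (SD, n = 4 each), with log2 fold changes of 0.12 (SE 0.15) and -0.01 (SE 0.23), or 0.08 and -0.08 without replicate 17. The groups overlapped in all 4 genes. Selenos (-0.13, SE 0.10) and Sec61b (-0.19, SE 0.15), which were lower with exercise at day 5 in the values below, had adjusted p of 0.627 and 0.635 here, and log2 fold changes of -0.21 and -0.15 without replicate 17.

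**Figure D4:**
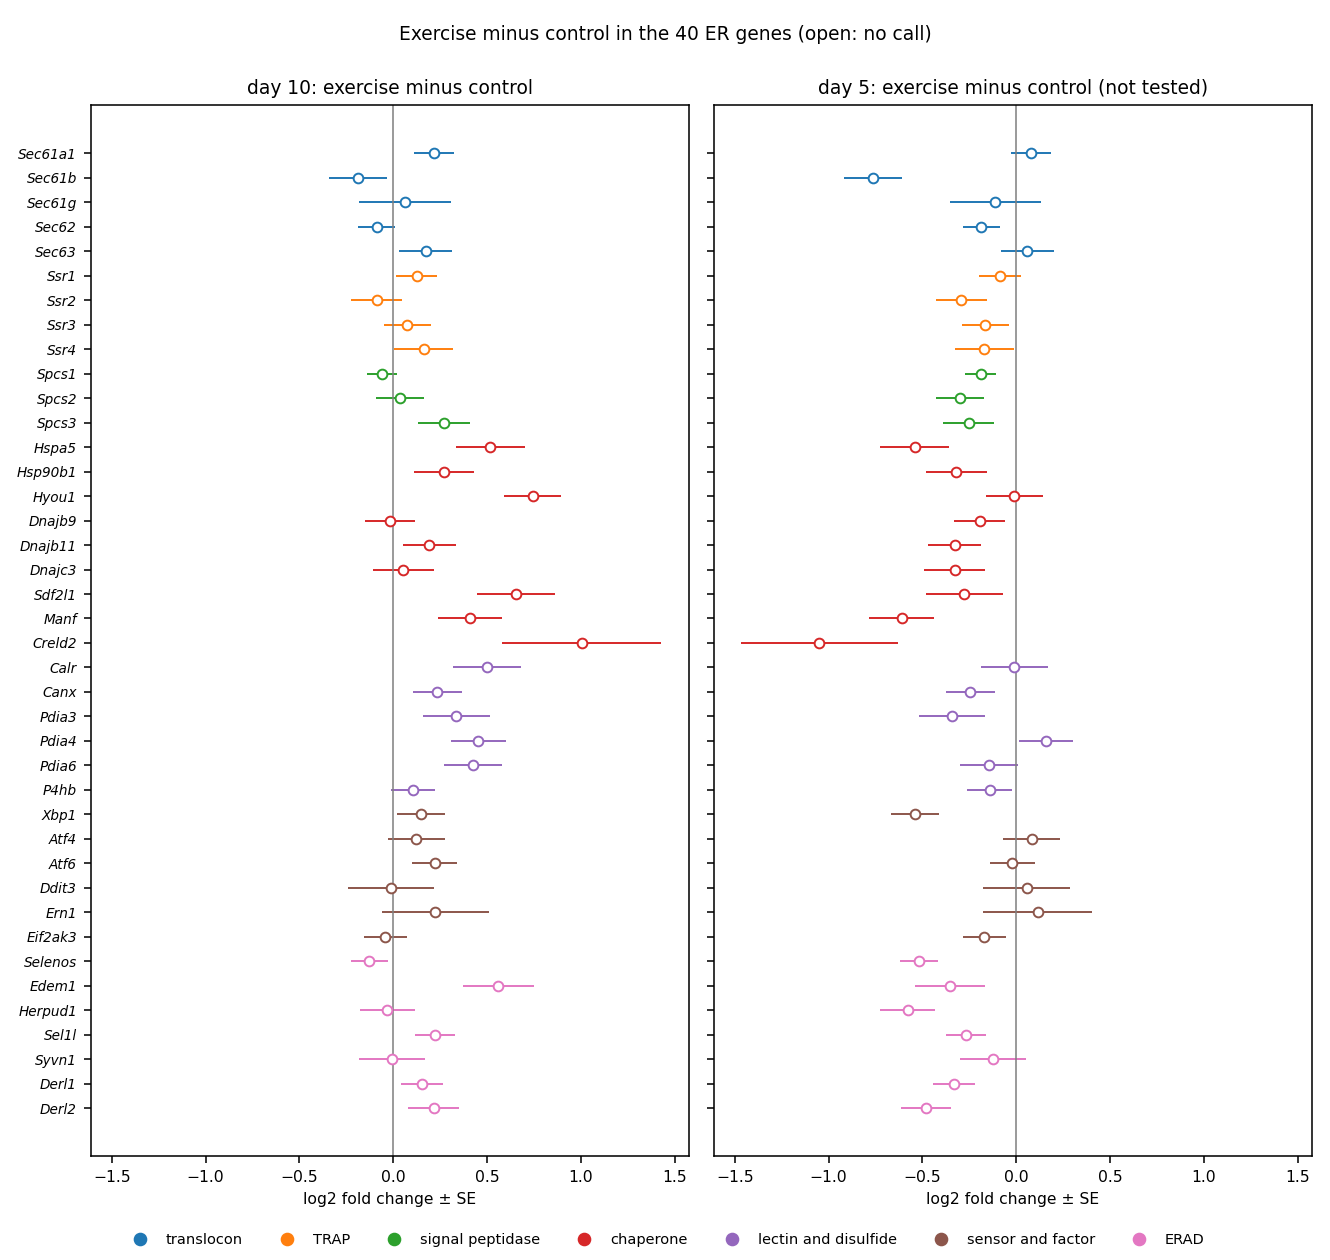
Log2 fold change of exercise over control with its standard error for each of the 40 genes at day 10 (left, no gene past the threshold) and day 5 (right, not tested), coloured by role. At day 10, 30 of 40 points lie right of 0 with Hyou1 at 0.74, and at day 5, 34 of 40 lie left of 0.

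At day 5, the comparison that drew attention to the set, levels were lower with exercise for 34 of the 40 genes, against 48.4% of all genes, given here as a description. The median log2 fold change was -0.22, against 0.01 over all genes. In 14 genes every exercise library lay below every control library and in 0 above, where 3.97% and 3.33% of all genes did so. No gene of the 15096 (0%) passed the threshold in this comparison with edgeR. All 7 ERAD genes and all 9 chaperones had values below 0, with medians of -0.35 and -0.33. The median of the sensors and factors was 0.02.

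Selenos had 64.1, 67.7, 70.01 and 64.4 CPM in exercise lesions at day 5 and 93.7, 86.7, 108 and 92.2 CPM in control lesions, a log2 fold change of -0.52 (SE 0.10). Sec61b had 16.97, 18.6, 22.8 and 21.9 CPM in exercise and 25.4, 37.4, 38.6 and 34.96 CPM in control lesions, a log2 fold change of -0.76 (SE 0.15). Xbp1 had 133, 131, 163 and 144 CPM in exercise and 199.8, 203, 228 and 198 CPM in control lesions, a log2 fold change of -0.54 (SE 0.13). The groups were apart in all 3. They were also apart in Herpud1 (-0.58, SE 0.15), Manf (-0.61, SE 0.17), Hspa5 (-0.54, SE 0.18), Derl2, Edem1, Pdia3, Derl1, Hsp90b1, Sel1l, Canx and Spcs1. Calr (-0.01), Hyou1 (-0.01) and Atf6 (-0.02) were close to 0, and Pdia4 was above it (0.16, SE 0.14). Atf4 (0.08) and Ddit3 (0.06) were also above 0, with SEs of 0.15 and 0.23. The day 5 exercise libraries were the shallower ones with the higher mt-Rnr2 share, as given above, and the part of this in the difference was not tested.

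**Figure D5:**
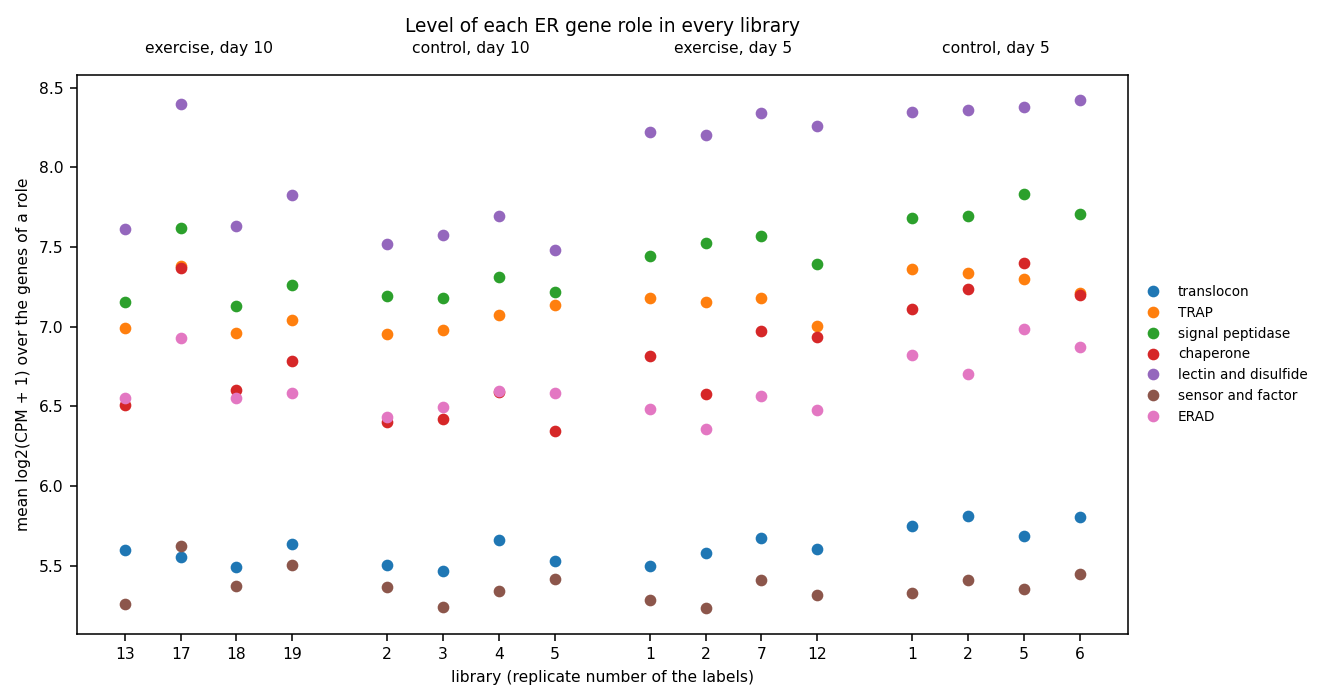
Mean of log2(CPM + 1) over the genes of each role, with 1 dot per role and library and libraries named by their replicate number. Lectin and disulfide genes lie between 7.48 and 7.70 in control lesions at day 10 and between 8.35 and 8.42 in control lesions at day 5, while exercise replicate 17 of day 10 lies at 8.40, above the 7.61 to 7.825 of its group.

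Averaging by role shows the library levels in brief. For the lectin and disulfide genes the mean of log2(CPM + 1) was 7.61 to 8.40 in exercise and 7.48 to 7.70 in control lesions at day 10, and 8.205 to 8.34 in exercise and 8.35 to 8.42 in control lesions at day 5. For the chaperones it was 6.51 to 7.37 in exercise and 6.35 to 6.59 in control lesions at day 10, and 6.575 to 6.97 in exercise and 7.11 to 7.40 in control lesions at day 5. Replicate 17 set the upper end of exercise at day 10 in both roles. Without it, the highest exercise library of day 10 was at 7.825 and 6.79.

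A wider list of 90 ER genes was read beside the set, covering signal recognition, glycosylation, other folding enzymes, ERAD partners and stress-response targets, of which 84 were tested. In control lesions 17 were lower and 3 higher at day 10 than at day 5 (23.8%, against 12.3% of all genes), with a median log2 fold change of -0.12. The lower genes with the smallest p included the oligosaccharyltransferase subunits Rpn1 (log2 fold change -0.71, SE 0.12, adjusted p = 0.00115 with edgeR) and Ddost (-0.78, SE 0.17, adjusted p = 0.00464), which attach sugar chains to entering proteins. Eif2s1, the initiation factor subunit that PERK phosphorylates, was lower (-0.70, SE 0.12, adjusted p = 0.00139). So were Asns, the asparagine synthetase that ATF4 induces (-1.48, SE 0.32, adjusted p = 0.00548), and the membrane thioredoxin Tmx1 (-0.57, SE 0.13, adjusted p = 0.00901). The 3 higher genes were the ER prolyl isomerase Fkbp9 (0.57, SE 0.12, adjusted p = 0.00348), the growth-pathway inhibitor Ddit4 (0.73, SE 0.17, adjusted p = 0.00990) and the ER-anchored factor Creb3l2 (0.55, SE 0.14, adjusted p = 0.0153). Without control replicate 2 of day 10 the count of 20 dropped to 8, without control replicate 3 of day 10 to 12, and without control replicate 1 or 5 of day 5 to 13.

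In exercise lesions 4 of the 84 were higher and 2 lower at day 10 (7.14%, against 10.1% of all genes). Creb3l2 was higher (0.83, SE 0.14, adjusted p = 0.00140). So were 2 genes that serve disposal of ER proteins, the ubiquitin-conjugating enzyme Ube2j1 (0.47, SE 0.10, adjusted p = 0.00661) and the membrane adaptor Ubxn4 (0.33, SE 0.10, adjusted p = 0.0451). Asns (-1.06, SE 0.32, adjusted p = 0.0409) and Selenof (-0.27, SE 0.08, adjusted p = 0.0416), a selenoprotein of the folding quality control, were lower. The count of 6 was 2 without exercise replicate 2 or 7 of day 5, 3 without replicate 18 or 19 of day 10 and 10 without replicate 17. Between exercise and control at day 10, edgeR called 0 of the 84, against 0.192% of all genes. At an unadjusted p 6 were higher and 1 lower, where 7.25% and 5.56% of all genes were, so the share higher is close to the background. DESeq2 called 1 and limma-voom 0, and the shares of all genes they called are not given here.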

How the data were processed

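RNA was amplified with the REPLI-g protocol, selected for poly(A) and sequenced strand-specifically as single 75 bp reads, per the labels' protocols, and amplification from small amounts can add spread between libraries. Reads were aligned to GRCm38 with TopHat2 2.0.10 and Bowtie 1.1.2, per the submitters' processing notes. The deposited raw counts per Ensembl gene came from featureCounts 1.5.0-p1 with strand-specific counting, per the file headers, as did the exon lengths. The authors also deposited log2 fold changes and adjusted p-values of exercise against control, and their day 10 table leaves out exercise replicate 17. The authors' normalized and variance-stabilised copies were not used. Symbols came from GENCODE mouse release M21.

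Tests used edgeR 4.0.16 (R 4.3.3) on the raw counts: filterByExpr (minimum count 10, minimum total 15) kept 15096 genes, TMM scaling, robust quasi-likelihood fit with 1 mean per group over all 16 libraries (12 residual degrees of freedom, common biological coefficient of variation 0.236), Benjamini-Hochberg adjustment over all genes tested and a threshold of 0.05. The fit was also run on counts simulated from its own kind of model. Such a run cannot show how the fit handles a library that stands apart, such as replicate 17. Alternatives were DESeq2 1.42.0, limma-voom (limma 3.58.1), RLE scaling, no filter, the compared libraries alone and each library left out, and the same alternatives for the wider ER list, and markers and role medians without replicate 17, were added after seeing the data. Members, lists and tests were chosen with earlier results of these data known. Values in every library are given for genes past the threshold (at most 10 per comparison by smallest p), for Selenos, Sec61b and Xbp1, and for Hspa5, Atf4 and Ddit3, and wider-list genes past the threshold are named up to 5 per direction. A wider-list gene past the threshold is not reported here by name.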

Additional observations from a re-analysis of the deposited data

Results flagged for a closer look

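In 160 sets of 4 libraries, 1 per gene and group, 7 held a library whose gap to the nearest of the others exceeded Dixon's limit for 4 values relative to the set's range, which chance passes in about 1 in 20 sets. Exercise replicate 17 of day 10 was such a library for Canx (786.3 CPM, others 474.8 to 528 CPM) and Spcs3 (410.6 CPM, others 242 to 267 CPM). Exercise replicate 2 of day 5 was low for Canx (493.45 CPM, others 565 to 576 CPM). Derl2 was low in control replicate 3 of day 10 (48.9 CPM, others 61.3 to 62.0 CPM) and high in control replicate 5 of day 5 (94.2 CPM, others 74.5 to 77.2 CPM). Syvn1 was high in exercise replicate 13 of day 10 (9.41 CPM, others 8.10 to 8.16 CPM) and low in exercise replicate 1 of day 5 (7.67 CPM, others 8.58 to 8.75 CPM).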

How the results depend on the processing

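For the genes called in the main fit, 262 of 294 alternative values kept their direction and side of the threshold, 32 lost the threshold and 0 reversed. Genes not called there were left out of this tally, so a call gained under an alternative could not appear in it. Among the 37 tested genes, the 18 control calls ranged from 15 to 18 with 1 control library left out, from 18 to 20 with 1 exercise library left out and from 16 to 20 under the other alternatives. In exercise the 3 calls were 0 with the 8 libraries fitted alone and 1 to 9 with 1 exercise library left out, the 9 being without replicate 17. For exercise against control at day 10 the 0 calls became 1 with DESeq2, 1 with no filter and 0 to 2 with 1 library of day 10 left out. The day 5 median of -0.22 lay between -0.25 and -0.19. In the wider ER list, the 20 control calls were 8 to 17 with 1 control library left out and 18 to 23 with 1 exercise library left out, the exercise calls 2 with no filter, 2 with the 8 libraries alone 2 to 10 with 1 exercise library left out and 4 to 6 with 1 control library left out, and the day 10 calls 1 with DESeq2 and 0 to 1 with 1 library of day 10 left out. Apart from the fewer libraries of the leave-outs and of the fit of 8, the cause was not tested. Libraries with the same number did not deviate together (Pearson correlations -0.09 to 0.10), so the numbers were not used for pairing. With the number as a replicate block, limma-voom called 18, 3 and 0 genes of the set in control, exercise and day 10, as it did without the block. The lowest count of the set was 43, for Sec61g, and what depth adds to the spread was not tested.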
